A study of Mus musculus with 6 samples.

Results

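The genes described here are 34 mouse genes of the actin cytoskeleton and of the transcriptional programmes run by serum response factor (SRF) and by YAP with its TEAD partners, taken from the array by their gene symbols. They were measured in MC38 cells, a colon carcinoma line of C57Bl/6 mice, on single-colour Illumina bead arrays. Of the 34, 31 had a probe under the listed symbol or a synonym (65 probes), against 19057 named genes and 34885 probes with 1 symbol on the whole array. Actg1, Cnn3 and Tgfb1i1 had no probe under that symbol and were not analysed here. A further 8 genes were not detected often enough to be tested, which left 23 tested genes with 43 tested probes, out of 8909 tested genes in all.

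There were 2 arrays in each of 3 groups. Stimulated cells were starved of serum for 16 h and then exposed for 6 h to S100A8/A9 at a dose of 10 µg/mL, in medium with reduced serum. S100A8/A9, also called calprotectin, is a pair of calcium-binding proteins released by neutrophils and monocytes. Unstimulated cells were starved for 16 h in the same reduced-serum medium without S100A8/A9, and the labels do not say whether they were kept for the 6 h that the stimulation lasted. Control cells grew in normal medium and received no treatment. The series set stimulated against unstimulated cells to ask what S100A8/A9 does in colon tumour cells, and the control cells add the difference made by serum starvation. All cells came from 1 line, and it is not stated that the 2 replicates of a group were grown separately. The p-values therefore cover the array-to-array spread alone, and that spread may be technical.

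On each array 14877 to 16176 of 45281 probes were detected, that is, had a detection p-value below 0.01, and the median raw signal was 90.2 to 97.4. None of the 10 epithelial markers passed the detection filter, including Epcam, Krt8 and Krt18, and 7 of the 10 were detected on no array, whereas 7 of 10 fibroblast markers passed it, so the labelled colon carcinoma type was not visible in these markers. No leukocyte or endothelial marker passed it either (0 of 5 on the array in each case). Of 8 smooth muscle markers that are not among the 34 genes, only Smtn and Mylk passed. The values are from bulk RNA, in which fewer cells of a type and less RNA per cell cannot be told apart.

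SRF binds the CArG box in the promoters of immediate early and cytoskeletal genes. Its cofactors of the MRTF family are held in the cytoplasm by monomeric actin and enter the nucleus when serum or other signals drive actin into filaments, so the state of the actin pool feeds back on the genes that build it. YAP and its relative TAZ (gene Wwtr1) are kept out of the nucleus by the Hippo kinases, respond to spreading, tension and serum lipids, and act through TEAD factors on genes such as Ccn1, Ccn2 and Ankrd1. The 2 programmes share several targets.

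RefSeq promoter windows on the build GRCm38.p6, from 250 bases before to 50 bases after the start of each gene, were given for 28 of the 34 genes (34 windows, since some genes have more than 1). No window was given for Ccn2, Thbs1, Actb, Actg2, Tagln and Tgfb1i1, so these genes were not searched. The CArG box was searched as CC, then only A or T, then GG, with no mismatch allowed. The CArG box was found on either strand in 7 of these 34 windows, those of Srf, Actg1, Cnn2, Myl9, Vcl, Filip1l and Lmcd1, and in 1.63% of all 32851 promoter windows. The TEAD motif GGAATG, or CATTCC on the other strand, was found in 11 of the 34 windows, those of Ccn1, Ankrd1, Amotl2, Lats2, Acta2, Tagln2, Tpm1, Vcl, Flna, Actn4 and Pfn1, and in 14.7% of all windows. No match of one motif overlapped a match of the other. A match is a description of the letters and not evidence of binding. The windows of 4 genes are shown, those of Srf, which has 2 CArG boxes, and of the 3 genes that hold either motif and that differed in level from control cells in both other groups. Capitals mark CArG boxes in Srf and Lmcd1 and TEAD motifs in Ccn1 and Ankrd1, and each run is 5′ to 3′ along the gene's own strand. The Srf window is chr17:46556113-46556412 on the minus strand, that of Lmcd1 chr6:112273508-112273807 on the plus strand, that of Ccn1 chr3:145649936-145650235 on the minus strand and that of Ankrd1 chr19:36119795-36120094 on the minus strand.
Srf: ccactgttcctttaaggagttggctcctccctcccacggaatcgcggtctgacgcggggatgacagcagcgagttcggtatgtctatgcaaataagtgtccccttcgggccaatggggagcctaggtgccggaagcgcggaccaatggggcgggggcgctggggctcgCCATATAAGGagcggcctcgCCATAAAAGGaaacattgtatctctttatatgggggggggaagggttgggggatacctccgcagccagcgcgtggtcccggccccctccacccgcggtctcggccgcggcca
Lmcd1: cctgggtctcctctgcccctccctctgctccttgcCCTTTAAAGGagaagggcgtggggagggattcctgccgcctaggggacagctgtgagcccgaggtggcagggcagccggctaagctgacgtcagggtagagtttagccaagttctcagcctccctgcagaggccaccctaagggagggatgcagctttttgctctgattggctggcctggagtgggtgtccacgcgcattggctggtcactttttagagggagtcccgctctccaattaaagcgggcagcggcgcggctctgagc
Ccn1: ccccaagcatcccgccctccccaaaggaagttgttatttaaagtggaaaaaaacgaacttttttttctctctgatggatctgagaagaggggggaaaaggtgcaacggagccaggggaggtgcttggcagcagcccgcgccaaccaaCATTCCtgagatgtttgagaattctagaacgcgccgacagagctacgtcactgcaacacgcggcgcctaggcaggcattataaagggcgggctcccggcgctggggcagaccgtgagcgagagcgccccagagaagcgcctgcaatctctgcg
Ankrd1: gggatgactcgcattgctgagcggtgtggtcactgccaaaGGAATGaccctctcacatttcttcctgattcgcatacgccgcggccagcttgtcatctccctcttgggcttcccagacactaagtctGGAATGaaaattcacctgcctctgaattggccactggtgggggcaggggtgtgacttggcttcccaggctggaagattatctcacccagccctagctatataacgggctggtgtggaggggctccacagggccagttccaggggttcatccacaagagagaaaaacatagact
In Srf the boxes run from -82 to -73 and from -62 to -53, counted from the start of the gene. In Lmcd1 the box runs from -215 to -206. The motif of Ccn1 lies at -103 to -98 and reads as GGAATG on the opposite strand, and Ankrd1 holds the motif at -210 to -205 and again at -123 to -118. The windows of Csrp1, Gsn and Tpm3, the other genes that differed from control cells, held neither motif.

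Against control cells, 3 of the 34 genes were clearly more abundant in both starved groups: Lmcd1, Gsn and Csrp1. The YAP and SRF targets Ccn1 and Ankrd1 were lower in both starved groups, and Tpm3, a tropomyosin, was lower in unstimulated cells. Most structural genes of the actin cytoskeleton, Actb, vinculin, zyxin, filamin A and cofilin among them, did not pass the test in any comparison. S100A8/A9 added to starved cells moved none of the 23 tested genes past the threshold. The plots of level by array and of fold change show these patterns gene by gene.

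**Figure D1:**
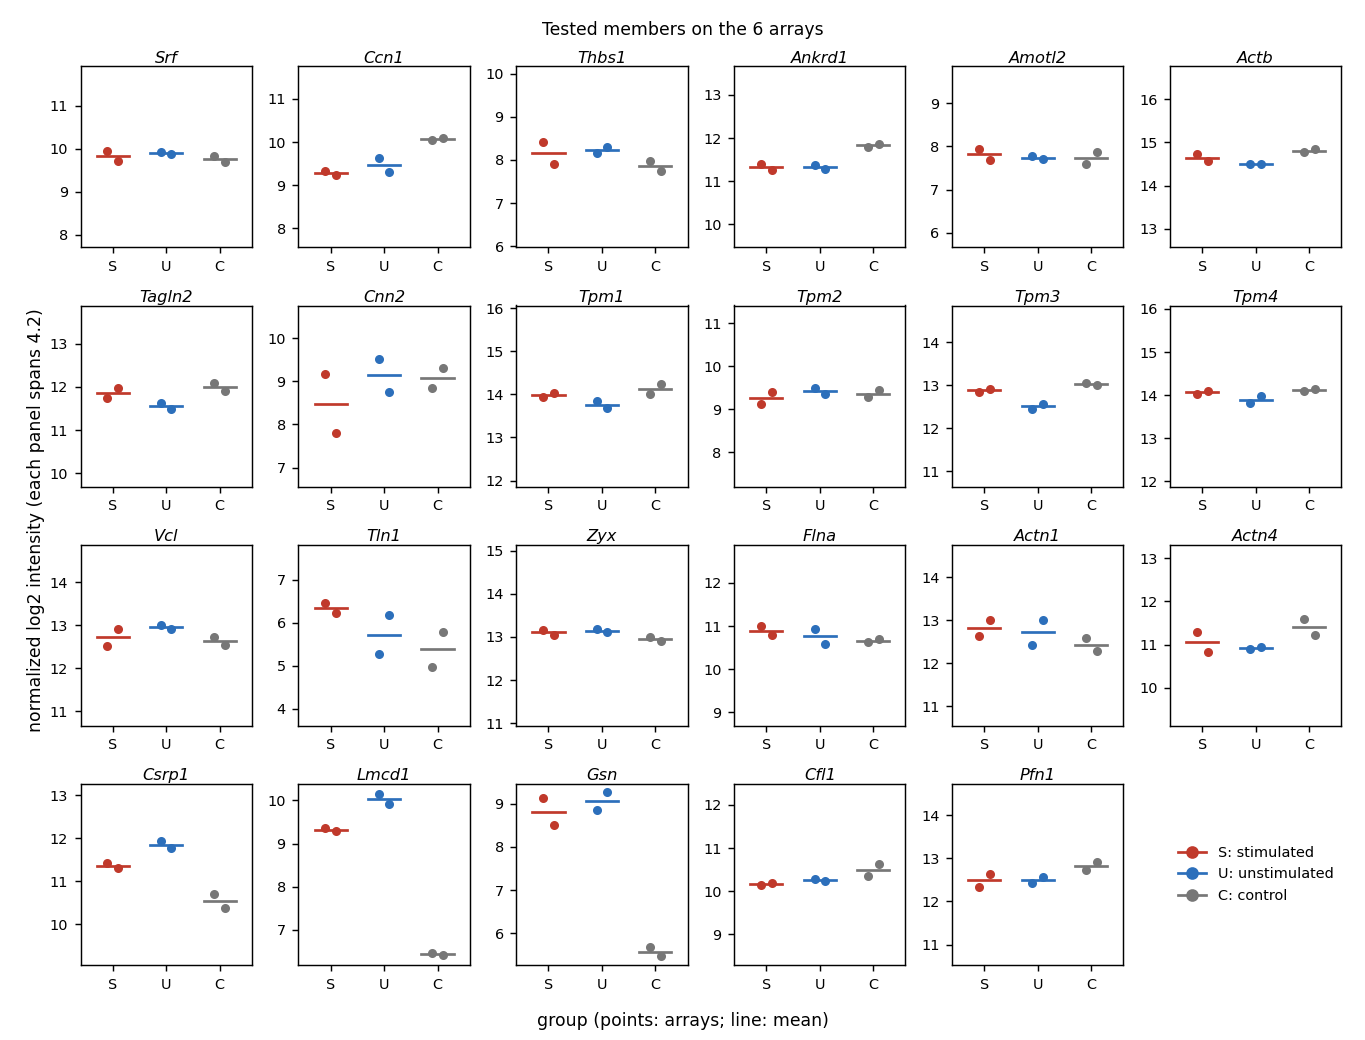
Normalized log2 intensity (y axis, every panel with the same span) of the 23 tested genes on the stimulated (S), unstimulated (U) and control (C) arrays. Points are arrays and lines are means of 2. Lmcd1, Gsn and Csrp1 lie far above control in both starved groups, and Ccn1 and Ankrd1 below it, while most other panels are nearly flat.

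In the limma fit across all genes, with Benjamini-Hochberg adjustment over 8909 genes and a threshold of 0.05, unstimulated cells had 3 genes higher and 3 lower than control cells. That is 6 of 23, or 26.1%, beside 30.8% of all tested genes (17.1% higher and 13.7% lower), so the share lay near the background. The median log2 fold change of the 23 was 0.05, against -0.00 over all tested genes. For 17 of the 23 the normalized values of the groups did not overlap, beside 68.5% of all tested genes (7 higher, beside 34.7%, and 10 lower, beside 33.8%). Without unstimulated replicate 2, control replicate 1 or control replicate 2, the count of genes past the threshold was 3 of 23, with 3 higher and 0 lower. The 17 genes not past the threshold had estimates of -0.49 to 0.38, with adjusted p of 0.0647 to 0.965.

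Stimulated cells had 3 genes higher and 2 lower than control cells, 5 of 23 or 21.7%, beside 29.1% of all tested genes (15.9% higher and 13.2% lower). The median of the 23 was -0.05, against -0.01 over all tested genes, and 13 of 23 did not overlap, beside 65.8% of all tested genes (7 higher, beside 32.8%, and 6 lower, beside 33%). The other 18 genes had estimates of -0.60 to 0.96. Both comparisons use the same control arrays, so a shared direction in them is not independent.

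Stimulated and unstimulated cells differed in 0 of 23 genes by limma with adjustment, beside 0.0786% of all tested genes (7 of 8909, all higher). At an unadjusted p below 0.05 there were 3 of 23 genes, beside 730 of 8909 tested genes. The estimates ran from -0.72 to 0.62 with adjusted p from 0.155 to 1, and the median was -0.02 against -0.01 over all tested genes. The groups did not overlap for 9 of 23 genes, beside 38.5% of all tested genes (6 higher, beside 18.5%, and 3 lower, beside 20%).

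**Figure D2:**
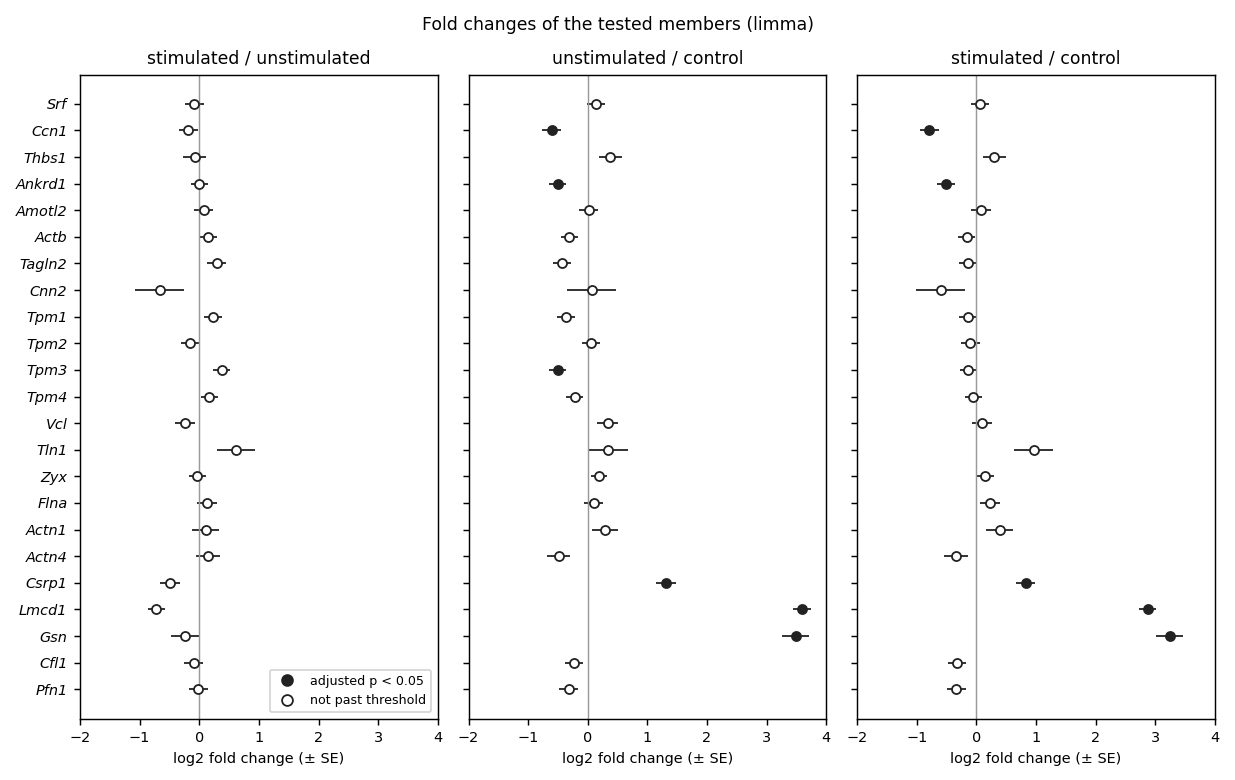
Log2 fold change (x axis) with its standard error for the 23 tested genes in 3 comparisons. Filled points passed the adjusted threshold: none for stimulated over unstimulated cells, 6 for unstimulated over control cells and 5 for stimulated over control cells.

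Srf, which encodes the factor itself, gave raw signals of 913.4 and 901.8 in stimulated cells, 1109.5 and 991.9 in unstimulated cells and 951.1 and 1005.6 in control cells. In raw signal all 6 arrays lay close together and the control arrays fell within the span of the others. Its log2 fold changes, on normalized values, were 0.14 (adjusted p = 0.507) in unstimulated over control cells, 0.06 (adjusted p = 0.798) in stimulated over control cells and -0.08 (adjusted p = 0.935) in stimulated over unstimulated cells. A second, dim probe, at 130.5 to 191.3 on the 6 arrays, had estimates of -0.63, -0.18 and 0.45 in the same order, opposite in sign to the brighter probe each time.

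Ccn1 (formerly Cyr61) encodes a secreted matricellular protein that binds integrins and is a standard readout of both YAP and SRF. Its raw signal was 617.6 and 664.4 in stimulated cells, 906.9 and 693.0 in unstimulated cells, and 1086.6 and 1307.5 in control cells. Both starved groups lay below both control arrays, and the stimulated arrays were the lowest in raw signal. Ccn1 was 1.52-fold lower in unstimulated than in control cells (log2 fold change -0.60 ± 0.16 SE, n = 2 arrays each, limma adjusted p = 0.0199). In stimulated cells it was 1.73-fold lower than in control cells (-0.79 ± 0.16, limma adjusted p = 0.00665). The difference between stimulated and unstimulated cells was -0.18 ± 0.16 (limma adjusted p = 0.817), within the spread of the unstimulated arrays. The other 2 probes of Ccn1 gave -0.52 and -0.61 in unstimulated over control cells, and -0.70 and -0.80 in stimulated over control cells. The call against control in unstimulated cells was lost without unstimulated replicate 2 (adjusted p = 0.126), control replicate 1 (0.0679) or control replicate 2 (0.0798).

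Ankrd1 encodes a nuclear and sarcomeric ankyrin repeat protein and is a direct TEAD target. Its brightest probe read 2331.8 and 2475.4 in stimulated cells, 2902.9 and 2528.4 in unstimulated cells, and 3622.9 and 4452.3 in control cells. Every starved array lay below both control arrays. Ankrd1 was 1.42-fold lower in unstimulated than in control cells (-0.51 ± 0.14 SE, limma adjusted p = 0.0271), and the estimate in stimulated over control cells was also -0.51 (limma adjusted p = 0.0282). The estimate between stimulated and unstimulated cells was 0.00 ± 0.14 (limma adjusted p = 1). Its second probe gave -0.41 in unstimulated over control cells, -0.66 in stimulated over control cells and -0.25 in stimulated over unstimulated cells. The calls of Ankrd1 sat close to the threshold: it passed in 8 of 14 alternative analyses for unstimulated and in 9 of 14 for stimulated over control cells, and in each comparison leaving out any 1 array of the groups compared ended the call (adjusted p of up to 0.126 and 0.120).

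Ccn2 (formerly Ctgf), the sister of Ccn1 and another standard YAP target, was not detected on any array, at raw signals of 76.5 to 105.2 for its 2 probes. Thbs1, which encodes the matricellular protein thrombospondin 1, read 360.8 and 304.6 in stimulated cells, 382.1 and 383.8 in unstimulated cells, and 302.9 and 312.3 in control cells. In raw signal the unstimulated arrays were the highest and the stimulated arrays overlapped the control arrays. After normalization stimulated replicate 1 was the highest array. Thbs1 had an estimate of 0.38 in unstimulated over control cells (adjusted p = 0.171) and of 0.30 in stimulated over control cells (adjusted p = 0.277), and so did not share the sign of Ccn1 and Ankrd1.

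Amotl2 and Lats2 are YAP targets that restrain YAP in turn: the first encodes an angiomotin-like scaffold that binds it, the second a Hippo kinase that phosphorylates it. Amotl2 read 279.6 and 272.6 in stimulated cells, 308.1 and 277.7 in unstimulated cells, and 249.1 and 338.5 in control cells. The control arrays spanned all the others in raw signal. The estimates were 0.01 in unstimulated over control, 0.08 in stimulated over control and 0.07 in stimulated over unstimulated cells. Lats2 was not detected on any array, at 85.6 to 113.2.

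Among the actins, the smooth muscle isoforms Acta2 and Actg2 did not pass the detection filter. A single probe of Acta2 was detected on 1 array, that of stimulated replicate 2, at 119.4. Actb, the main cytoplasmic actin, read 21741.6 and 22859.6 in stimulated cells, 23978.8 and 22594.6 in unstimulated cells, and 30720.7 and 32601.3 in control cells. With this probe, the brightest, the raw signal was lower on all 4 starved arrays. Some other probes overlapped: the next brightest read 19544.5 in stimulated replicate 2 and 19590.8 in unstimulated replicate 1, against 18447.4 in control replicate 1. After quantile normalization the difference was -0.31 in unstimulated over control cells (adjusted p = 0.130) and -0.16 in stimulated over control cells (adjusted p = 0.424). All 5 tested probes of Actb had estimates below 0 in unstimulated over control cells, from -0.31 to -0.12. In stimulated over control cells 2 lay below 0 and 3 above it, from -0.16 to 0.31. All 5 lay above 0 in stimulated over unstimulated cells, from 0.15 to 0.54, though the brightest probe turned to -0.03 when arrays were scaled to 1 median instead, a scaling that moved the median of all genes to -0.13 in that comparison.

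The contractile genes best known from smooth muscle were mostly not detected. Tagln (transgelin), Cnn1 (calponin 1) and Myl9 (a myosin light chain) had no probe detected on any array, and neither had Filip1l, a filamin A interacting protein. Together with Ccn2, Lats2, Acta2 and Actg2 their 15 probes read 64.6 to 119.4. The more widely expressed relatives Tagln2 and Cnn2 were detected.

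Tagln2 read 2928.4 and 4023.6 in stimulated cells, 3447.1 and 2899.7 in unstimulated cells, and 4472.0 and 4508.6 in control cells. Both control arrays were above all others in raw signal, and its estimate in unstimulated over control cells was -0.43 (adjusted p = 0.0647). It passed the threshold there without background correction, at an adjusted p of 0.0203. Cnn2 read 559.0 and 288.0 in stimulated cells, 852.4 and 503.8 in unstimulated cells, and 495.8 and 792.2 in control cells. Its replicates were far apart in every group, and no estimate passed the test (-0.66 in stimulated over unstimulated cells, adjusted p = 0.723). Without stimulated replicate 1, the estimate in stimulated over control cells was -1.29 (adjusted p = 0.0221), against -0.60 with all arrays (adjusted p = 0.301). That fit leaves 1 stimulated array, which is assumed to vary like the other groups. The other probe of Cnn2 read 321.0 and 587.2 in stimulated cells, 542.1 and 445.2 in unstimulated cells, and 406.5 and 654.9 in control cells, with an estimate of -0.15 in stimulated over control cells, and its stimulated replicate 2 lay within the control span.

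The 4 tropomyosins wrap actin filaments and set which myosins and severing factors reach them. Tpm3 read 6177.8 and 7696.4 in stimulated cells, 5964.8 and 5943.7 in unstimulated cells, and 8755.1 and 9610.5 in control cells with its brightest probe. Unstimulated cells were lowest, control cells highest, and the 3 groups did not overlap. Tpm3 was 1.42-fold lower in unstimulated than in control cells (-0.50 ± 0.14 SE, limma adjusted p = 0.0253), and the call was lost without any 1 of the unstimulated or control arrays (adjusted p of 0.0694 to 0.118). In stimulated over control cells the estimate was -0.13 (limma adjusted p = 0.516), and in stimulated over unstimulated cells it was 0.37 (limma adjusted p = 0.509).

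The dimmer probes of Tpm3 differed more. One read 509.0 and 617.8 in stimulated cells, 527.6 and 577.4 in unstimulated cells, and 1105.3 and 1046.9 in control cells. The dimmest read 177.3 and 172.4 in stimulated cells, 220.9 and 169.6 in unstimulated cells, and 295.7 and 333.4 in control cells. Both lay clearly lower in the starved groups, which overlapped each other. In a fit over all 14157 tested probes, the estimates of these probes in unstimulated over control cells were -1.05 (limma adjusted p = 0.00457) and -1.01 (limma adjusted p = 0.00680). In stimulated over control cells they were -0.86 (limma adjusted p = 0.0105) and -1.04 (limma adjusted p = 0.00603), whereas the brightest probe gave an adjusted p of 0.547 there. A further 3 probes of Tpm3 were not tested. Which transcripts of Tpm3 each probe reads is not given in the annotation used.

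The other tropomyosins did not pass the test with the settings used throughout. Tpm1 read 13288.1 and 16651.6 in stimulated cells, 15233.5 and 12901.1 in unstimulated cells, and 17062.9 and 22445.4 in control cells, with an estimate of -0.37 in unstimulated over control cells (adjusted p = 0.103, and 0.0432 without background correction). Tpm4 read 14211.1 and 17175.8 in stimulated cells, 15043.7 and 15905.1 in unstimulated cells, and 17940.3 and 20544.0 in control cells, with an estimate of -0.22 (adjusted p = 0.278). Control arrays gave the highest raw signal for both genes. Tpm2 read 549.4 and 743.6 in stimulated cells, 829.2 and 713.5 in unstimulated cells, and 654.4 and 864.6 in control cells, overlapping throughout, and its estimate was 0.05 (adjusted p = 0.825). Its second tested probe was dim and not detected in unstimulated cells, where it was lower than in control cells by a bound of 1.29-fold. The fitted value of that probe was -0.55 (limma adjusted p = 0.0963 over all probes). One dim probe of Tpm4, at 186.7 and 203.7 in stimulated cells, 304.6 and 210.3 in unstimulated cells and 294.7 and 349.0 in control cells, was lower in stimulated than in control cells (-0.84, adjusted p = 0.0202 over all probes), while the brightest probe of that gene had an estimate of -0.05.

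**Figure D3:**
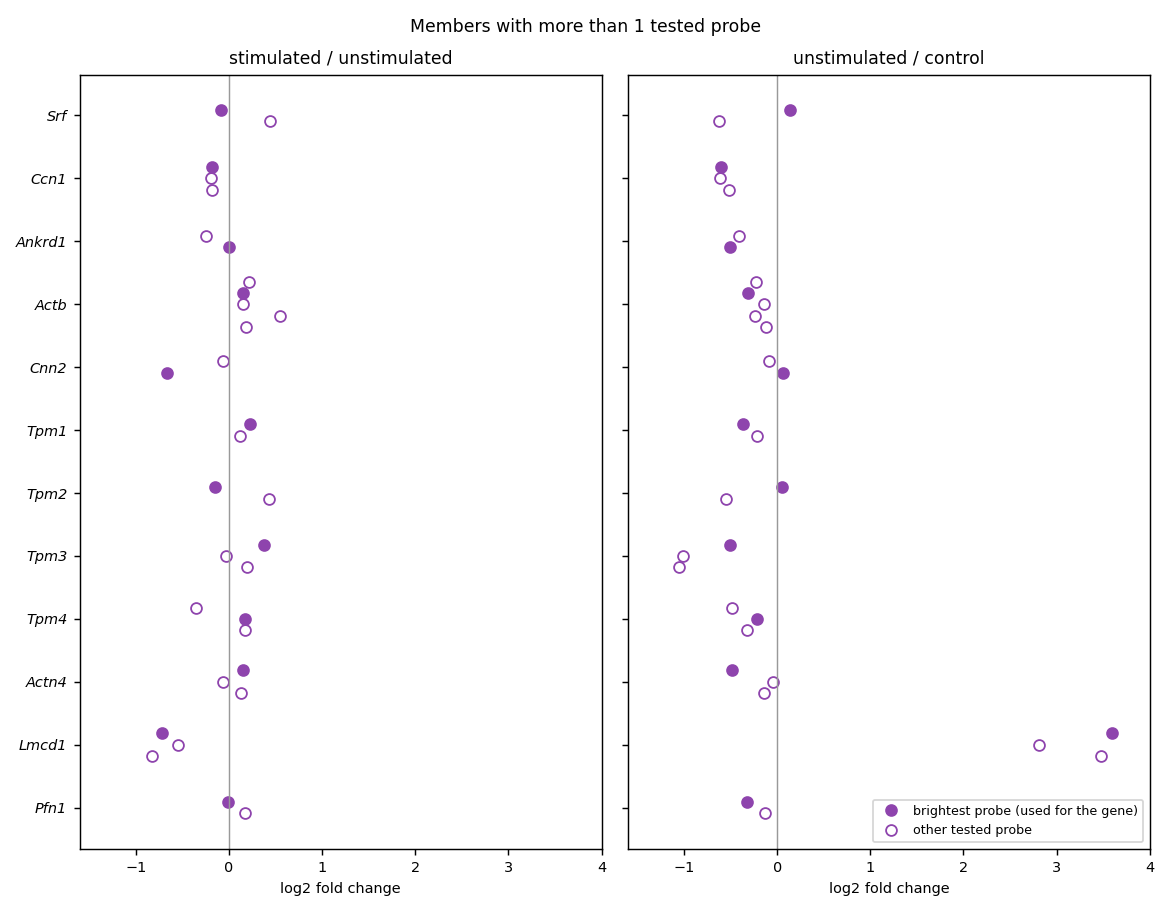
Log2 fold change (x axis) of every tested probe of the genes with more than 1 tested probe, in stimulated over unstimulated and unstimulated over control cells. Probes of a gene are set apart vertically, and filled points are the brightest probe, which stands for the gene. The 3 probes of Lmcd1 lie between 2.81 and 3.59 in unstimulated over control cells, and those of Tpm3 spread from -1.05 to -0.50. The 2.81 is the fitted value of a probe not detected in control cells, which has a bound only.

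Proteins of the adhesion plaque and filament crosslinkers formed a group of 8 genes, 6 of them tested, and none passed the test in any comparison with the settings used throughout. Vcl (vinculin), which links talin to actin, read 4930.7 and 7665.2 in stimulated cells, 8592.3 and 7498.2 in unstimulated cells, and 7042.1 and 6984.1 in control cells, with an estimate of 0.33 in unstimulated over control cells (adjusted p = 0.171). Zyx (zyxin), a LIM protein of focal adhesions, read 7597.5 and 8314.5 in stimulated cells, 9664.5 and 8636.0 in unstimulated cells, and 8614.9 and 9029.0 in control cells, with an estimate of 0.19 (adjusted p = 0.341). Stimulated and control arrays overlapped for Vcl, and unstimulated and control arrays overlapped for Zyx in raw signal.

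Flna (filamin A), which crosslinks filaments into gels, read 1794.4 and 1820.1 in stimulated cells, 2153.0 and 1588.9 in unstimulated cells, and 1610.1 and 1953.1 in control cells, and its estimates were 0.10 to 0.22. The α-actinin gene Actn1 read 5347.9 and 8107.7 in stimulated cells, 5844.2 and 8034.7 in unstimulated cells, and 6417.6 and 5866.2 in control cells. Replicates of the starved groups differed more than the groups did for Actn1. Its relative Actn4 read 2172.0 and 1884.5 in stimulated cells, 2087.1 and 2021.8 in unstimulated cells, and 3121.9 and 2795.2 in control cells. The control arrays of Actn4 were the highest in raw signal. Its estimate was -0.49 in unstimulated over control cells (limma adjusted p = 0.0896, and 0.0207 without background correction), but its other 2 probes gave only -0.15 and -0.04.

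Tln1 (talin 1), which couples integrins to actin, was near the detection limit: 145.0 and 141.0 in stimulated cells, 112.5 and 140.5 in unstimulated cells, and 98.4 and 132.6 in control cells. It was detected on 2 stimulated arrays, 1 unstimulated array and 1 control array. Stimulated arrays were the highest of the 6 in raw signal. The estimate of 0.96 in stimulated over control cells just missed the threshold (adjusted p = 0.0526) and passed it in 8 of 14 alternative analyses. In stimulated over unstimulated cells the estimate was 0.62 ± 0.32 SE (limma adjusted p = 0.681).

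The LIM protein genes Lmcd1 and Csrp1 were higher in both starved groups than in control cells. Lmcd1 encodes a LIM and cysteine-rich domain protein that restrains GATA6 and promotes calcineurin signalling in muscle. Its brightest probe read 627.3 and 690.3 in stimulated cells, 1274.1 and 1022.1 in unstimulated cells, and only 152.4 and 166.7 in control cells. The 3 groups were fully apart, with control lowest and unstimulated highest. Lmcd1 was 12.1-fold higher in unstimulated than in control cells (log2 fold change 3.59 ± 0.15 SE, n = 2 arrays each, limma adjusted p = 2.83e-06). In stimulated cells it was 7.33-fold higher than in control cells (2.87 ± 0.15, limma adjusted p = 6.88e-06). Both sizes depend on the background correction, without which the log2 fold changes of Lmcd1 were 2.84 and 2.17.

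The other 2 probes of Lmcd1 went the same way. One read 320.7 and 497.2 in stimulated cells, 664.0 and 778.9 in unstimulated cells, and 118.2 and 140.7 in control cells, where it was detected on 1 of 2 arrays. The dimmest read 161.1 and 200.8 in stimulated cells, 274.0 and 231.8 in unstimulated cells, and 89.9 and 85.1 in control cells, where it was not detected. Against the lowest detected signal of the control arrays, that probe was at least 3.50-fold higher in unstimulated cells and at least 2.39-fold higher in stimulated cells. Both bounds hold for the background correction used.

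Lmcd1 was also the gene of the 23 with the largest difference between the starved groups. It was 1.65-fold lower in stimulated than in unstimulated cells (-0.72 ± 0.15 SE, 95% interval -1.05 to -0.39), with both stimulated arrays below both unstimulated arrays on each of the 3 probes. Its adjusted p was 0.155, above the threshold, with an unadjusted p of 0.000872. The other probes gave -0.82 and -0.55. The difference passed the threshold when the background was left uncorrected (-0.66, adjusted p = 0.0167) or a larger offset of 50 was used (-0.69, adjusted p = 0.0485).

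Csrp1 encodes a cysteine and glycine rich LIM protein that binds α-actinin and zyxin and is an SRF target in smooth muscle. Its 1 tested probe read 2348.3 and 2569.0 in stimulated cells, 4213.9 and 3463.8 in unstimulated cells, and 1681.3 and 1596.1 in control cells. The groups stood in the same order as for Lmcd1, again without overlap. Csrp1 was 2.49-fold higher in unstimulated than in control cells (1.31 ± 0.16 SE, limma adjusted p = 0.000805) and 1.77-fold higher in stimulated than in control cells (0.83 ± 0.16, limma adjusted p = 0.00632). Between stimulated and unstimulated cells the estimate was -0.49 ± 0.16, with both stimulated arrays lower, and did not pass the test (limma adjusted p = 0.460, unadjusted p = 0.0151).

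**Figure D4:**
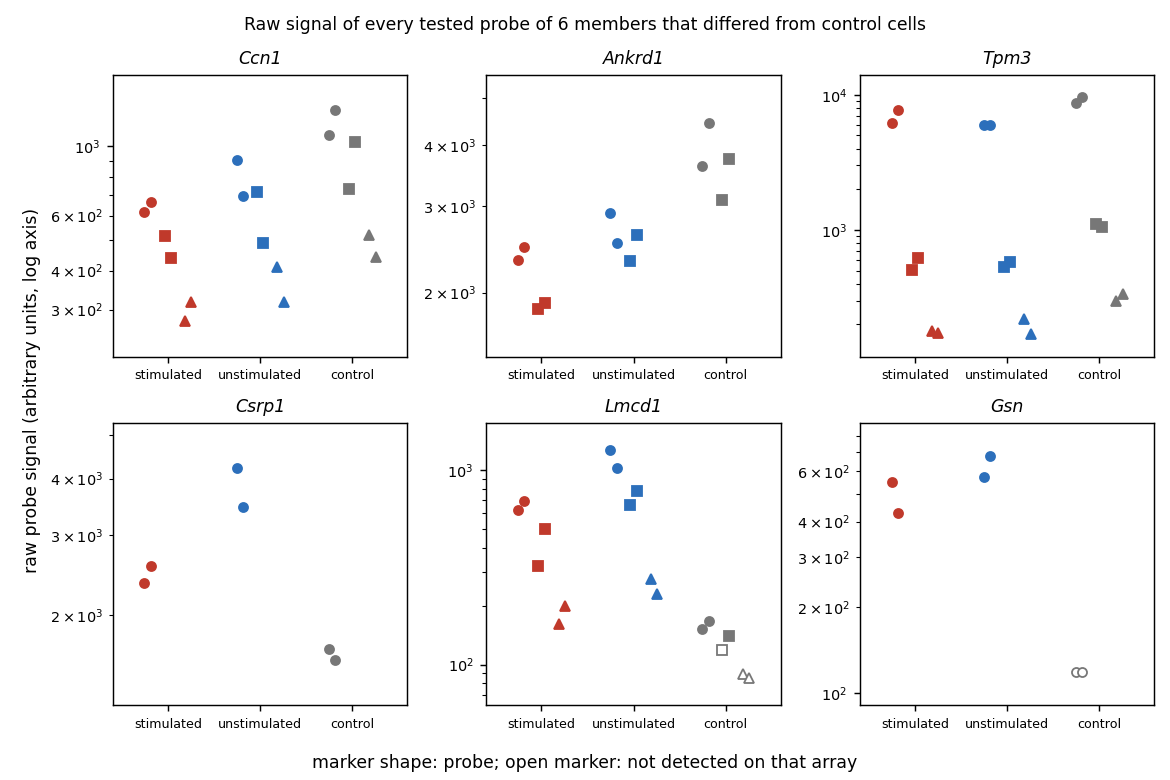
Raw probe signal (y axis, log scale, arbitrary units) in stimulated, unstimulated and control cells for the 6 genes that differed from control cells in at least 1 comparison. Each point is an array, each marker shape a probe, and open markers were not detected. Lmcd1, Csrp1 and Gsn are lowest in control cells, and Ccn1, Ankrd1 and Tpm3 highest there.

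Of the genes of actin turnover, Gsn differed widely. Gsn encodes gelsolin, which severs filaments in the presence of calcium and caps their ends. It read 549.6 and 430.3 in stimulated cells, 572.7 and 677.9 in unstimulated cells, and 119.1 on both control arrays, where it was not detected. Every starved array was far above the control arrays, and the starved groups were apart in raw signal but overlapped after normalization. With the background correction used, Gsn was higher than in control cells by a bound of 10.7-fold in unstimulated and 9.01-fold in stimulated cells. These bounds depend on that correction: without it the log2 fold change was 2.36 in unstimulated and 2.15 in stimulated over control cells. The fitted values with it were 3.49 (limma adjusted p = 3.15e-05) and 3.24 (limma adjusted p = 3.67e-05). Gsn passed the detection filter through the starved arrays alone, so these p-values are not separate support for the difference. The difference between stimulated and unstimulated cells was -0.24 ± 0.23 SE (limma adjusted p = 0.842). Its other probe was not detected often enough to be tested.

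Cfl1 (cofilin 1), which severs and depolymerises filaments, read 1032.8 and 1233.4 in stimulated cells, 1397.2 and 1265.6 in unstimulated cells, and 1321.0 and 1869.4 in control cells. Its estimates were -0.22 in unstimulated over control cells (adjusted p = 0.290) and -0.32 in stimulated over control cells (adjusted p = 0.141). Pfn1 (profilin 1), which loads monomers onto growing ends, read 4392.5 and 6229.2 in stimulated cells, 5839.0 and 5975.0 in unstimulated cells, and 7163.5 and 9039.1 in control cells. The control arrays were the highest for this probe of Pfn1, but its estimates of -0.32 (adjusted p = 0.163) and -0.34 (adjusted p = 0.148) in the same comparisons did not pass. The other tested probe of Pfn1 read 2837.8 in control replicate 1, the lowest of all arrays, and 4538.8 in control replicate 2. Its estimates were -0.13 and 0.05 in the same order.

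Against control cells, some markers of fibroblasts moved in the same direction as Lmcd1, Gsn and Csrp1. The summed raw signal of the 10 fibroblast markers was 25081.5 and 25009.7 in stimulated cells, 25369.6 and 29702.7 in unstimulated cells, and 14554.2 and 22434.9 in control cells. Most of each sum came from 1 probe of Vim, at 15535.2 and 13518.9 in stimulated cells, 14934.5 and 20272.7 in unstimulated cells, and 11149.5 and 18402.1 in control cells, whose groups overlapped. Pdgfra, named after its values were seen, read 3535.7 and 4232.1 in stimulated cells, 3230.7 and 2654.6 in unstimulated cells, and 988.3 and 1169.7 in control cells, without overlap. It was highest in stimulated cells, whereas Lmcd1 and Csrp1 were highest in unstimulated cells. Of the 7 tested markers, 5 were higher and 1 lower in each starved group against control. Beside these, 17.1% of all tested genes were higher and 13.7% lower in unstimulated cells, and 15.9% and 13.2% in stimulated cells. Col1a1 passed the detection filter through starved arrays alone, so it is not separate support for that count. Col1a2 went the other way, at 111.3 and 110.1 in stimulated cells, 125.1 and 112.1 in unstimulated cells, and 165.2 and 161.5 in control cells. None of the 7 passed between stimulated and unstimulated cells, while Lum, Thy1 and Fap were detected on no array. The smooth muscle markers summed to 2491.5 and 2722.2 in stimulated cells, 2628.5 and 2882.8 in unstimulated cells, and 2681.5 and 3425.4 in control cells, with Myh11, Des, Lmod1, Synpo2, Myocd and Kcnmb1 detected on no array. Their part in the results for Lmcd1, Gsn and Csrp1 was not tested.

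The regulators and further targets around these genes were read from a companion list of 93 genes, of which 86 had a probe and 71 were tested. In unstimulated over control cells 14 were higher and 5 lower, 26.8% beside 30.8% of all tested genes, with a median of 0.13. The number was 11 without unstimulated replicate 2 and 12 without control replicate 1. In stimulated over control cells 16 were higher and 7 lower, 32.4% beside 29.1%, with a median of 0.10, and the number was 13 without control replicate 1. In stimulated over unstimulated cells 0 of 71 passed by limma with adjustment, beside 0.0786% of all tested genes, with a median of 0.04. At an unadjusted p below 0.05 there were 9 of 71, beside 730 of 8909.

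By role, in unstimulated over control cells, 0 of 3 SRF cofactors passed, and 4 of 15 Hippo genes were higher and 2 lower. Of 27 further actin regulators 4 were higher and 1 lower, and of 14 further SRF and YAP targets 5 were higher and 2 lower. Beside these, 17.1% of all tested genes were higher and 13.7% lower. The 5 lower genes, named after their values were seen, were Ptpn14, Gadd45b, Nuak2, Mob1b and Myl12a. In stimulated over control cells, 2 of 3 SRF cofactors were higher and 0 lower, beside 15.9% and 13.2% of all tested genes. The counts there were 4 and 2 of 15 Hippo genes, 4 and 1 of 27 further actin regulators, and 5 and 4 of 14 further targets.

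Of the core factors, Wwtr1 and Tead1 passed the test against control and Yap1 and Mrtfa did not. Yap1 read 497.0 and 535.5 in stimulated cells, 635.0 and 606.7 in unstimulated cells, and 449.8 and 570.7 in control cells, with an estimate of 0.31 in unstimulated over control cells (adjusted p = 0.127). Wwtr1, which encodes TAZ, read 5559.6 and 6421.1 in stimulated cells, 6930.0 and 5687.3 in unstimulated cells, and 4605.4 and 5200.5 in control cells. Starved arrays were above control arrays for Wwtr1, and it was higher in unstimulated cells (0.47, adjusted p = 0.0359) and in stimulated cells (0.57, adjusted p = 0.0187) than in control cells. Tead1 had estimates of 0.09 (adjusted p = 0.652) and 0.47 (adjusted p = 0.0338) in the same comparisons. Mrtfa, the actin-sensing SRF cofactor, had 0.14 in unstimulated over control cells (adjusted p = 0.706), but its signal was near the detection limit. Mrtfa read 98.9 and 100.3 in stimulated cells, 119.6 and 113.6 in unstimulated cells, and 123.5 and 98.8 in control cells. It was detected on 1 unstimulated array, 1 control array and no stimulated array, so these values cannot show whether its level changed. Mrtfb was not tested.

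The immediate early genes Egr2, Egr1 and Fos, known as SRF targets, were higher in both starved groups than in control cells. Egr2 read 373.7 and 441.3 in stimulated cells, 422.5 and 459.2 in unstimulated cells, and 132.8 and 132.3 in control cells, with estimates of 2.55 in unstimulated over control cells (limma adjusted p = 2.7e-05) and 2.58 in stimulated over control cells (limma adjusted p = 2.2e-05). Egr1 read 3963.6 and 4943.0 in stimulated cells, 5455.2 and 5576.4 in unstimulated cells, and 2938.7 and 3342.1 in control cells (0.91 in unstimulated over control cells, adjusted p = 0.00215, and 0.75 in stimulated over control cells, adjusted p = 0.00503). Both genes were above control on every starved array, as was Fos at 251.2 and 247.3 in stimulated cells, 298.9 and 266.3 in unstimulated cells, and 137.2 and 193.1 in control cells (1.21 in unstimulated over control cells, limma adjusted p = 0.00342, and 1.15 in stimulated over control cells, limma adjusted p = 0.00426). Control signals of Egr2 and Fos were low, so the sizes of their estimates may depend on the background correction. That was not checked for these genes.

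Other large differences were in single regulators. Mylk, the myosin light chain kinase, read 383.6 and 456.1 in stimulated cells, 421.7 and 383.6 in unstimulated cells, and 207.8 and 178.2 in control cells (1.42 in unstimulated over control cells, adjusted p = 0.00157, and 1.66 in stimulated over control cells, adjusted p = 0.000724). Capg, a capping protein of the gelsolin family, read 1357.8 and 1599.4 in stimulated cells, 1919.4 and 1359.2 in unstimulated cells, and 799.8 and 789.3 in control cells (1.11 in unstimulated over control cells, adjusted p = 0.00271). Starved arrays were above control arrays for both genes. The same comparison gave 1.14 (adjusted p = 0.00176) for Vgll3, a TEAD cofactor, and 0.90 (adjusted p = 0.0159) for Vgll4, which competes with YAP for TEAD. Ptpn14, a phosphatase that holds YAP in the cytoplasm, was lower, at 146.2 and 161.5 in stimulated cells, 173.1 and 160.6 in unstimulated cells, and 261.3 and 302.9 in control cells (-1.15 in unstimulated over control cells, adjusted p = 0.000682). Its other 2 probes gave -0.19 and -0.74.

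**Figure D5:**
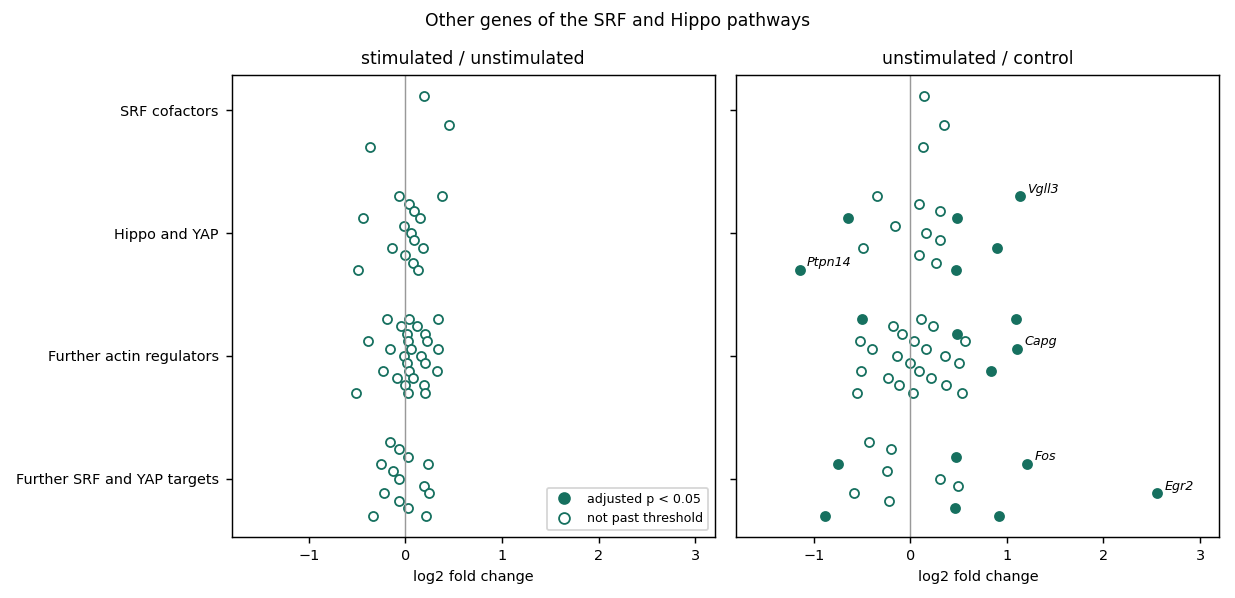
Log2 fold change (x axis) of tested companion genes in 4 groups by role, for stimulated over unstimulated and unstimulated over control cells, each point a gene. Filled points passed the adjusted threshold. None is filled in stimulated over unstimulated cells, and Egr2 lies farthest out, at 2.55, in unstimulated over control cells.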

How the data were processed

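Total RNA of 6 MC38 samples was hybridised to Illumina bead arrays, all on 1 chip on which position followed group, so the effect of position cannot be told apart from that of group. The deposited intensity of each probe is a linear signal without normalization. The deposited detection p-value compares a probe with negative control beads, per the file headers. The authors' other table, also deposited, gives log2 values that match plain quantile normalization of the signals to within 0.00203. The sources used here do not name the software that made the signals.

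Groups came from the sample titles. Intensities were processed in R 4.3.3 with limma 3.58.1 (neqc: normexp with its negative controls derived from detection p-values, offset 16, quantile normalization, log2). Of 45281 probes, 34885 had 1 gene symbol, 18 had several and 10378 had none, and symbols were updated through Entrez IDs. A probe was tested if detected (p below 0.01) on at least 2 of 6 arrays, and the brightest probe stood for a gene. A model with 1 mean for each group took in all 6 arrays (3 residual and 6.00 prior degrees of freedom), with Benjamini-Hochberg adjustment over 8909 genes. A gene undetected on both arrays of a group has a bound only: the brighter group's mean over a floor, which on each array is the lowest signal among detected probes or that of the probe itself, if higher. No pair of arrays was identical (88 to 134 equal signals). The limma fit was tried on simulated gene values with known fold changes, whereas the steps before it were not.

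The members and lists were chosen with earlier results of these data known. All 34 members are named. Of the companion list, Yap1, Wwtr1, Mrtfa, Mrtfb, Tead1, Fos and Egr1 are named always, and per comparison the 6 called genes with the largest fold change whose groups do not overlap and which were detected on both arrays of the higher group. One group of the companion list is not reported here by itself. Alternatives changed the background correction, offset, normalization, filter, probe rule, source table and replicate block, and left out each array.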

Additional observations from a re-analysis of the deposited data

How the results depend on the processing

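Results were recomputed under 14 alternatives. These are not independent: the deposited log2 values nearly repeat the run without background correction, and some runs leave out an array of a group not compared. A count of alternatives passed is therefore a description only. Between stimulated and unstimulated cells, 7 genes of the whole array were called, against 44 without background correction and 44 from the deposited log2 values, 36 with an offset of 50, 15 with median scaling, and 4 to 8 when 1 array was left out (4 without stimulated replicate 1 or unstimulated replicate 1). The members called there were 0 of 23, and 1, Lmcd1 (lower), without background correction, with an offset of 50 and from the deposited log2 values. In unstimulated over control cells, leaving out 1 array gave 1366 to 2831 genes in place of 2746 (1366 to 1736 without any 1 of the unstimulated or control arrays), 3 to 6 members in place of 6 (3 higher and 0 lower without unstimulated replicate 2 or either control replicate) and 11 to 21 companion genes in place of 19. In stimulated over control cells it gave 1554 to 2324 genes in place of 2589 (1554 and 1594 without control replicate 1 and 2), 4 to 6 members in place of 5 and 13 to 22 companion genes in place of 23. The cause of these changes was not tested, beyond the smaller number of samples when an array is left out. No called member changed sign in any alternative. Csrp1, Lmcd1 and Gsn passed in all 14 in both comparisons with control, as did Ccn1 in stimulated over control cells. Ccn1 passed in 11 of 14, Tpm3 in 10 of 14 and Ankrd1 in 8 of 14 in unstimulated over control cells. Of the members not called, 14, 7 and 7 changed sign under some alternative in stimulated over unstimulated, unstimulated over control and stimulated over control cells. Under some alternative 1, 3 and 3 of them passed the threshold in the same comparisons. Median scaling moved the median of all genes to -0.13 in stimulated over unstimulated and -0.11 in stimulated over control cells. With the replicate number as a block, the members called were 0, 6 and 6 and the companion genes 0, 21 and 21 in those comparisons. Deviations of same-numbered arrays from their group means had correlations of -0.04 to -0.01 across tested genes. Such values cannot settle whether samples were grown or handled in pairs, which is not stated. With 2 arrays per group, their number limits the precision, and signals near background, as for Tln1, are measured least well.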
